A study of Mus musculus with 15 samples.

Results

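The genes of the mitochondrial ribosomal proteins were followed in cultured mouse microglia under 3 stimuli. They were chosen by name, as all genes of the array whose symbol starts with Mrpl (large subunit) or Mrps (small subunit) followed by a number, whatever their values. The array holds 132 probes for 76 such genes among 19036 named genes. Of these 76 genes, 72 were measured, where measured means a probe above background on at least 3 of 15 arrays, and 70 of the 72 were detected on all 15 arrays. Mrpl19, Mrpl32 and Mrps14 were detected on no array and Mrpl45 on 1 array, so they carry no value here. The 76 genes are spread over 17 chromosomes.

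Mitochondria keep a small genome that encodes core subunits of the respiratory chain, and a dedicated ribosome translates it inside the organelle. The RNA of this ribosome comes from mitochondrial DNA, whereas all of its proteins are encoded in the nucleus, made in the cytosol and imported. Some proteins have homologs in the bacterial ribosome and others were added during the evolution of mitochondria, and inflammatory activation of macrophages and microglia is known for a shift in the use of mitochondrial respiration.

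The cells were microglia differentiated from C57BL/6-ATCC embryonic stem cells (ESdM), a cultured counterpart of the brain's resident macrophages, kept in N2 medium. The 6 untreated arrays were compared with 3 arrays each of cells exposed for 24 h to interleukin-4 (IL-4, 100 U/ml), a type 2 cytokine, to bacterial lipopolysaccharide (LPS, 500 ng/ml) together with interferon-γ (IFN-γ, 20 ng/ml), a pro-inflammatory pair, or to the regulatory cytokine TGF-β (transforming growth factor-β) at 50 ng/ml. Whether numbered arrays of a group stem from different cultures is not in the labels. The p-values therefore describe the scatter of arrays, which may be technical. All groups derive from the same stem cell line, and the 3 comparisons with untreated cells share the same 6 untreated arrays.

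Of 12 microglial marker genes with a probe, 10 were measured, and P2ry12 and Gpr34 were detected on no array. Of these 10, Cx3cr1 and Tmem119 were detected on 3 arrays only, with TGF-β values of 1.30 and 1.86 (log2 fold change). These values are no test of a rise, as such a gene can pass the filter through the group where it is high. At an adjusted p under 0.05 by limma, 4 of the 10 were higher and 1 lower with TGF-β (19.7% and 19.0% of all genes). With LPS/IFN-γ 2 were higher and 3 lower (21.5% and 34.3%). Spi1 was lower with TGF-β (-0.33), and with LPS/IFN-γ Aif1 was higher (2.70) and Trem2 (-0.70) and Tyrobp (-0.77) lower. The mean log2 intensity of Cx3cr1 was 4.70 in untreated cells, 4.54 with IL-4, 4.65 with LPS/IFN-γ and 6.00 with TGF-β. The markers of neurons, fibroblasts and endothelial cells with a probe were detected on no array, and 1 of 7 stem cell markers (Pou5f1), 2 of 6 of astrocytes and 1 of 5 of oligodendrocytes were measured. The summed intensity of the microglial markers ran from 16250 to 17830 on untreated arrays, 15280 to 17760 with LPS/IFN-γ, 18060 to 20940 with IL-4 and 22010 to 23400 with TGF-β, and its part in the results was not tested. Each array detected 13601 to 14789 probes, and arrays of 1 group correlated with r of 0.983 to 0.996 across genes, which are not independent replicates. The arrays came from 3 chips, each with 1 array of every stimulus. In total RNA from a culture, fewer cells of a type and less RNA per cell cannot be told apart.

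The promoters of 8 genes on whose values the results turn are shown first, each from 250 bases before to 50 bases after the start of the gene (RefSeq, GRCm38.p6). Mrpl27 and Mrpl52 rose with LPS/IFN-γ, Mrpl18, Mrps23 and Mrpl49 fell most with it, Mrpl47 and Mrpl12 fell most with TGF-β, and Mrps18b was called lower with each stimulus. Mrpl13 and Mrpl38, which also rose with LPS/IFN-γ, had no promoter entry and are not shown. Capitals mark every match, on either strand, to 4 motifs: CCGGAAG, the core of sites bound by ETS factors such as GABP (also known as NRF-2), AAGATGGC, a YY1 core, GCGCATGCG, an NRF1 core, and CACGTG, an E-box. They lie at chr11:94653541-94653840 (plus strand) for Mrpl27, chr14:54426659-54426958 (plus) for Mrpl52, chr17:12916042-12916341 (minus) for Mrpl18 and chr11:88204138-88204437 (plus) for Mrps23. The others lie at chr19:6057706-6058005 (minus) for Mrpl49, chr3:32736706-32737005 (minus) for Mrpl47, chr11:120484387-120484686 (plus) for Mrpl12 and chr17:35916391-35916690 (minus) for Mrps18b.
Mrpl27: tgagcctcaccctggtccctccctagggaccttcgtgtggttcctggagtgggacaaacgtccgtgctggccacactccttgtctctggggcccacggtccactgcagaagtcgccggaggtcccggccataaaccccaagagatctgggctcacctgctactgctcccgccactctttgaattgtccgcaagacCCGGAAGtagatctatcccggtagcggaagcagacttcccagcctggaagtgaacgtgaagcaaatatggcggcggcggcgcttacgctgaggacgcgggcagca
Mrpl52: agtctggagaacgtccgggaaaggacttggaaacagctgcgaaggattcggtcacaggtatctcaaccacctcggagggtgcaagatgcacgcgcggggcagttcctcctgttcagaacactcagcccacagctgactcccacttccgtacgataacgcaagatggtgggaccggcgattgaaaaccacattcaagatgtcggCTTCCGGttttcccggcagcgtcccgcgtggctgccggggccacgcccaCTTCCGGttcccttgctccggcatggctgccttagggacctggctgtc
Mrpl18: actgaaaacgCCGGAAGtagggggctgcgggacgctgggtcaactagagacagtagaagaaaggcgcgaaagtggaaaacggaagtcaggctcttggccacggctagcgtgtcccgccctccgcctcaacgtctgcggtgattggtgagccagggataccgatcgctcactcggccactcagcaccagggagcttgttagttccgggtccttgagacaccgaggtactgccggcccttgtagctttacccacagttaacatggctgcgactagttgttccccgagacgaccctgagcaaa
Mrps23: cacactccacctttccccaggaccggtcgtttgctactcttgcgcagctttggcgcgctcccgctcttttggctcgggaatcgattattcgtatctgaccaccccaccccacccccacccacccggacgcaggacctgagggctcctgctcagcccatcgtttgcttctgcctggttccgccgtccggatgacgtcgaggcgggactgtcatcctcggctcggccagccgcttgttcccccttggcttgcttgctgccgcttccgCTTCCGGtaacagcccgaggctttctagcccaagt
Mrpl49: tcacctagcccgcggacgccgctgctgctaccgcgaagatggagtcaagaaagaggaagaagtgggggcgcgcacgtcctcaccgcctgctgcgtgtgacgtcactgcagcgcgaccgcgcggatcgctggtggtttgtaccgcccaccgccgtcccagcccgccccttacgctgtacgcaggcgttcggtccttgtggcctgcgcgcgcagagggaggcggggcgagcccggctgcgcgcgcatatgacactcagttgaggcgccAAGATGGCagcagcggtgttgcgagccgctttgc
Mrpl47: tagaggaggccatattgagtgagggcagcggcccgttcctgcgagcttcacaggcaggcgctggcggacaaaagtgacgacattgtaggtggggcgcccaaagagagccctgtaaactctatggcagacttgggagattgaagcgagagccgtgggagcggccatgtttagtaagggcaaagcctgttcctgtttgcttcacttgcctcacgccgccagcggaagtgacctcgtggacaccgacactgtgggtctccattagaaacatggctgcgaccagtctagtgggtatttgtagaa
Mrpl12: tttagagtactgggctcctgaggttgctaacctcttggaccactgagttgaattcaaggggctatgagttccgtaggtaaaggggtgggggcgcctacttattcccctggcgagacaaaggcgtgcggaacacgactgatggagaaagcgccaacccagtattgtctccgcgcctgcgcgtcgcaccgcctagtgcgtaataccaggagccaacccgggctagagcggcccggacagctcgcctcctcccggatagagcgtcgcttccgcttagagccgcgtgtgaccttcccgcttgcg
Mrps18b: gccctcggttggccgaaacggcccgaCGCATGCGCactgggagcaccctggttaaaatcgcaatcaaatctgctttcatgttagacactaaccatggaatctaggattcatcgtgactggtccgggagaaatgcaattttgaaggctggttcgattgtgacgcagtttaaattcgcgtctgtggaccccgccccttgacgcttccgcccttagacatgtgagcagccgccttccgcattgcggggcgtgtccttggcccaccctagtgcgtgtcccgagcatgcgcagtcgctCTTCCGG

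Counting the first transcribed base as 1 and the base before it as -1, the ETS letters start at -55 in the promoter of Mrpl27, at -47 and 3 in that of Mrpl52, at -240 in that of Mrpl18, at 16 in that of Mrps23 and at 44 in that of Mrps18b. The Mrps18b promoter also holds the NRF1 letters at -224, and the Mrpl49 promoter the YY1 letters at 17. The windows of Mrpl47 and Mrpl12 hold none of the 4 motifs, which says only that these letters are not in these 300 bases. Of the 76 genes, 67 had a promoter in the table, and the ETS letters stood in 26 of them (38.8%), against 22.6% of the 7069 measured genes of the array with a promoter and 12.9% of 17492 coding genes. The YY1 letters stood in 12 (17.9%, against 5.93% and 3.57%), the NRF1 letters in 7 (10.4%, against 4.67% and 2.61%) and the E-box in 5 (7.46%, against 12.5% and 8.91%). These matches are a description of letters, not of bound sites. The ETS letters stood in 10 of 23 genes called lower with LPS/IFN-γ, in 3 of 5 called higher and in 13 of 36 that were not called. The 5 leave out Mrpl13 and Mrpl38, called higher but without a promoter entry. With TGF-β they stood in 9 of 26 genes called lower, against 16 of 37 that were not called.

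Many of these genes also share a start region with a neighbour. A coding gene on the other strand started within 1000 bases upstream of 23 of the 67 (34.3%), against 14.7% of 6991 measured genes and 8.48% of 17492 coding genes. Mrpl46 and Mrps11 are such a pair of members, with starts 42 bases apart, and both lay slightly below untreated without a call (log2 fold change with TGF-β of -0.11 and -0.14). In the 17 pairs with both genes measured, LPS/IFN-γ gave the same call to both genes in 2 pairs, a call to the partner alone in 6, to the mitoribosomal gene alone in 3, to neither in 5 and opposite calls in 1. That pair is Mrpl30, a large-subunit protein, at -0.21 ± 0.06 (SE) and Mitd1, which acts in the separation of dividing cells, at 1.03 ± 0.10 (adjusted p = 3.59e-07). With TGF-β the same call went to both genes in 2 pairs, to the partner alone in 6, to the mitoribosomal gene alone in 5 and to neither in 4. Among all genes, 55.7% were called with LPS/IFN-γ and 38.8% with TGF-β, and calls in other neighbouring pairs were not counted. Of the 2 pairs with the same TGF-β call, 1 is Mrpl18 (-0.44) with the cytosolic chaperonin subunit gene Tcp1 (-0.36 ± 0.07, adjusted p = 0.000847). With LPS/IFN-γ, Mrpl18 fell by 0.75 whereas Tcp1 was at -0.005 (adjusted p = 0.957).

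Fold changes below are log2 values against untreated, with the standard error (SE) of the fit, levels are log2 intensities, and a gene is called at an adjusted p under 0.05. The plot of all members by stimulus shows the 72 genes beside the middle range of all 8558 genes. With TGF-β, 30 of them were called lower (41.7%, against 19.0% of all genes) and 1 higher (1.39%, against 19.7%), by modest amounts. With LPS/IFN-γ, 7 were called higher (9.72%, against 21.5%) and 23 lower (31.9%, near the 34.3% of all genes). With IL-4, 3 were called, all lower (4.17%, against 6.32%). With the probe that stands for each gene, no member changed 2-fold in any of the 3 comparisons by limma, while 0.631% of all genes did with IL-4, 8.16% with LPS/IFN-γ and 2.75% with TGF-β.

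**Figure D1:**
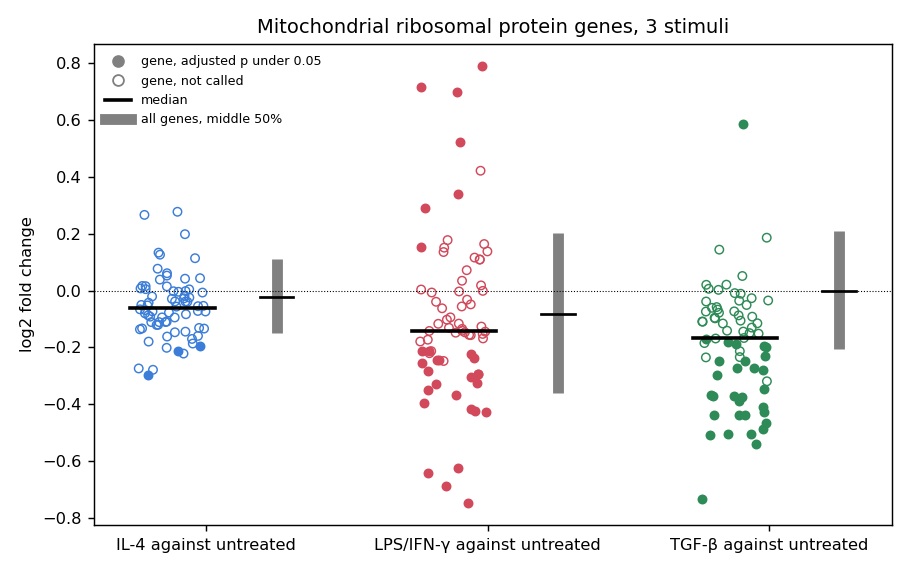
Log2 fold changes of the 72 measured mitoribosomal genes against untreated cells, one column of points per stimulus (filled: adjusted p under 0.05), with their median as a black bar and the middle 50% and median of all 8558 genes beside each column. With TGF-β 64 of 72 points lie below 0, with LPS/IFN-γ the points reach from -0.75 to 0.79, and with IL-4 they lie between -0.30 and 0.28.

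TGF-β lowered a broad set of mitoribosomal genes. Of 72, 30 were called lower and 1 was called higher, or 43.1% called in either direction where 38.8% of all genes were. The share called lower was 41.7% against 19.0% of all genes, and the share called higher 1.39% against 19.7%. The calls ran from -0.17 to -0.73, the median over the members was -0.17 against -0.0015 for all genes, and 64 of 72 lay below 0 where 50.3% of all genes did. In 33 members (45.8%) every TGF-β array lay below every untreated array, as it did in 18.9% of all genes. Within the 3 chips the members' median was -0.16, -0.17 and -0.19, and all 31 calls kept their direction in every chip. For 27 of the lower calls and the 1 higher call that direction was fixed beforehand, as their TGF-β and untreated arrays do not overlap. The members' median less that of all genes stayed between -0.15 and -0.19 under each background correction and scaling tried. Without TGF-β replicate 1 the count of lower calls was 22.

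Mrpl47 encodes uL29m, a protein at the exit of the tunnel through which the new peptide leaves the ribosome, and had the lowest fold change with TGF-β. Its untreated level ran from 9.42 over a median of 9.56 to 9.69, and the TGF-β arrays read 8.82, 8.99 and 8.67. All 3 lay below every untreated array, while the LPS/IFN-γ arrays at 9.70, 9.67 and 9.80 overlapped the untreated ones. The level fell by 39.9%, at -0.73 ± 0.08 (adjusted p = 5.13e-06). A second probe, detected on 11 arrays, gave -0.59 ± 0.17 (adjusted p = 0.0124).

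Mrpl12 encodes bL12m of the flexible stalk that brings translation factors to the ribosome, and has also been described as a partner of the mitochondrial RNA polymerase. Its level in untreated cells ran from 12.28 over a median of 12.42 to 12.50. The TGF-β arrays read 11.91, 11.74 and 11.96 and the LPS/IFN-γ arrays 12.17, 12.12 and 12.02. Both sets lay wholly below the untreated arrays, by -0.54 ± 0.07 with TGF-β (adjusted p = 3.06e-05) and -0.30 ± 0.07 with LPS/IFN-γ (adjusted p = 0.00213). With IL-4 it was at -0.11 ± 0.07 (adjusted p = 0.342).

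Mrps18b encodes mS40, 1 of 3 mammalian relatives of the bacterial S18 protein, and was called lower with each of the 3 stimuli in separate comparisons that share the untreated arrays. Its untreated level ran from 12.35 over a median of 12.40 to 12.43. The IL-4 arrays read 12.20, 12.20 and 12.19, the LPS/IFN-γ arrays 12.08, 12.11 and 11.998, and the TGF-β arrays 11.84, 11.87 and 11.96. None of the 9 stimulated arrays reached the untreated range. The fold changes were -0.19 ± 0.06 with IL-4 (adjusted p = 0.0334), -0.33 ± 0.06 with LPS/IFN-γ (adjusted p = 0.000138) and -0.50 ± 0.06 with TGF-β (adjusted p = 5.49e-06). The IL-4 call was lost without any 1 of 7 arrays and in 6 of 15 other settings (adjusted p up to 0.391), while the TGF-β call held in all of them. Its 2 other probes gave -0.55 and -0.61 with TGF-β. Of the other S18 relatives, Mrps18a (mL66, placed in the large subunit despite its name) was at -0.05 and Mrps18c (bS18m) at 0.14 with TGF-β, neither called.

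Mrps5 (uS5m, near the path by which mRNA enters the small subunit) read 9.63, 9.42 and 9.43 with TGF-β against 9.91 to 10.10 in untreated cells, median 9.98. The groups did not overlap, and the fold change was -0.51 ± 0.07 (adjusted p = 5.98e-05). Mrpl34 (bL34m, bound to the large rRNA) read 10.71, 10.72 and 10.70 against 11.12 to 11.32, median 11.20, again with no overlap, at -0.50 ± 0.07 (adjusted p = 8.32e-05). Mrpl9 (bL9m) read 11.41, 11.01 and 11.49 against 11.60 to 11.89, median 11.80, at -0.47 ± 0.10 (adjusted p = 0.00142), and its second probe gave -0.46. Mrpl15 (uL15m), the member with the most measured probes, was at -0.44 ± 0.06 (adjusted p = 2.6e-05), and its other 5 probes gave -0.23 to -0.61, of which the one at -0.23 was not called. These genes encode structural proteins of the ribosome's body with bacterial homologs, and none of the 4 was called higher by any probe.

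In the rest of the 10 lowest with TGF-β the call was less firm than the value. Mrps15 (uS15m) was at -0.49 ± 0.16 (adjusted p = 0.0233). It was not called without TGF-β replicate 1 (-0.45, adjusted p = 0.0861) or 3 (-0.45, adjusted p = 0.0831). With the mean of its probes or with the replicate block it was not called either (adjusted p up to 0.0741). The replicate block takes array numbers as blocks, so untreated replicates 4, 5 and 6, without a stimulated partner, add nothing under it. Mrps25 (mS25) was at -0.44 ± 0.13 (adjusted p = 0.0136), and was not called without TGF-β replicate 1 (-0.40, adjusted p = 0.0601) or 2 (-0.41, adjusted p = 0.0529). Mrpl18 (uL18m, in bacteria the partner of the 5S rRNA) was at -0.44 ± 0.13 (adjusted p = 0.0151), at -0.31 without TGF-β replicate 2 (adjusted p = 0.111), and not called with the replicate block (adjusted p = 0.0995). All 3 were lower within each chip, while the 7 genes above also stayed called when any 1 array was left out.

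Mrpl52 went the other way, as the only member called higher with TGF-β. It encodes mL52, a large-subunit protein without a bacterial homolog. Its untreated level ran from 11.68 over a median of 11.75 to 11.85, the TGF-β arrays read 12.14, 12.55 and 12.34, and the LPS/IFN-γ arrays 12.14, 12.36 and 12.35. All 6 lay above every untreated array, while the IL-4 arrays at 11.54, 11.49 and 11.84 overlapped them. The fold change was 0.59 ± 0.10 with TGF-β (adjusted p = 0.000219) and 0.52 ± 0.10 with LPS/IFN-γ (adjusted p = 0.000301). When arrays were scaled by their median alone, the TGF-β value was 0.37 and not called (adjusted p = 0.0786). The other 9 of the 10 highest with TGF-β lay between -0.01 and 0.19, led by Mrpl2 (uL2m, at the peptidyl transferase centre) at 0.19 ± 0.08 (adjusted p = 0.07) and Mrps18c, and none of them was called.

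By subunit, TGF-β was followed by 14 lower calls among 25 small-subunit genes (56.0%, median -0.24) and by 16 lower (34%) and 1 higher among 47 large-subunit genes (median -0.12), beside 19.0% lower and 19.7% higher among all genes. By origin, 19 of 43 genes with a bacterial homolog were called lower (44.2%, median -0.18), and 11 of 29 genes for mitochondria-specific proteins were called lower (37.9%) and 1 higher (median -0.12). Mrps18b was counted as mitochondria-specific although it is a relative of a bacterial protein, so the 2 classes are not strictly separate. The difference between these classes was not tested. Mrps30, named for the small subunit but placed in the large one as mL65, was at -0.18 ± 0.07 (adjusted p = 0.0488). That call was lost without any 1 of 12 arrays, all but IL-4 replicate 3 and LPS/IFN-γ replicates 2 and 3, with an adjusted p of up to 0.139, and in 4 of 15 other settings, with one of up to 0.202. The plot of each member by subunit names every gene.

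**Figure D2:**
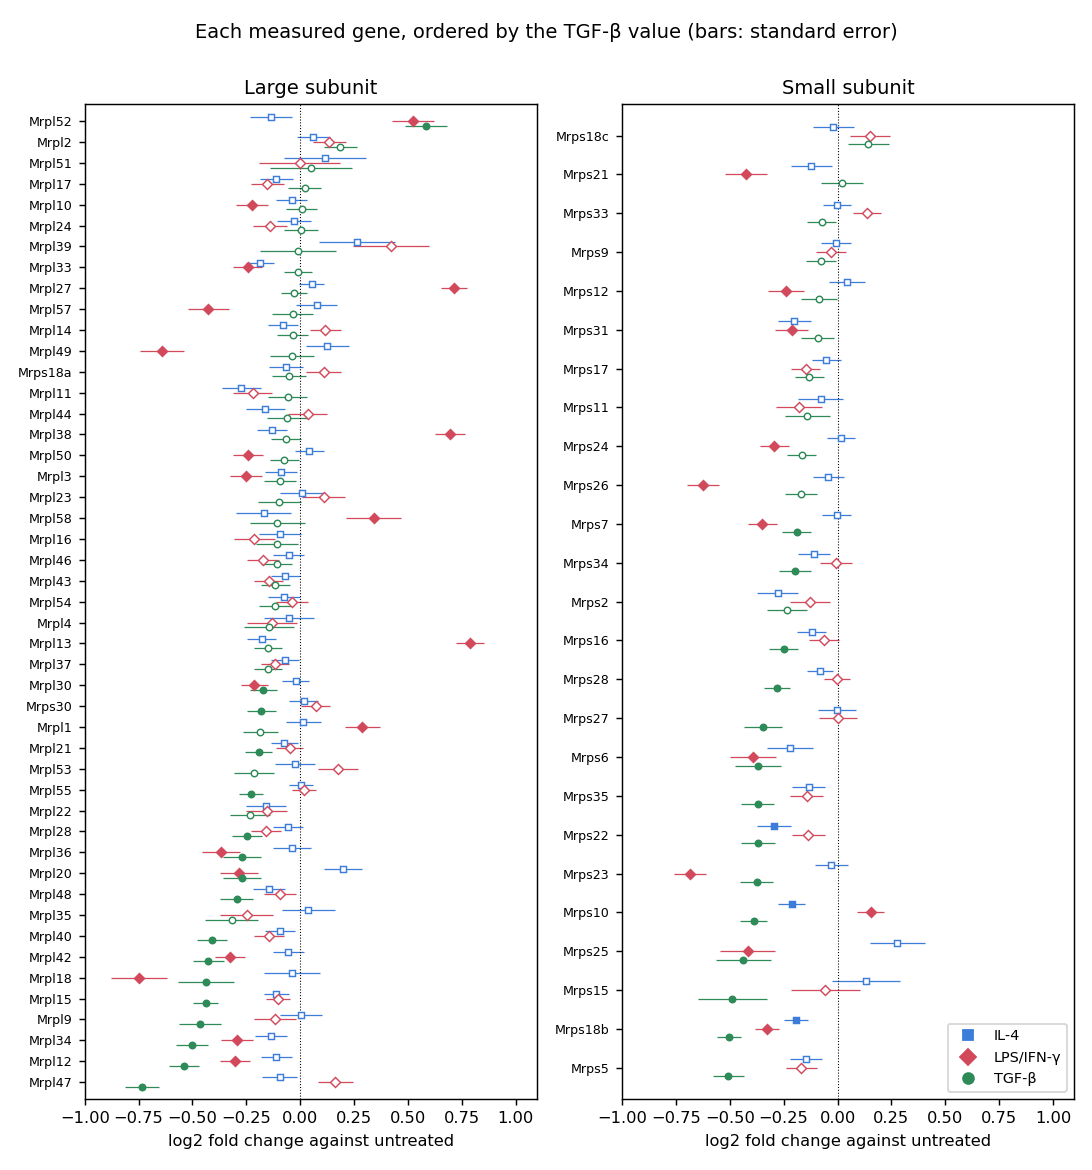
Log2 fold change against untreated of each measured gene (bars: SE) with IL-4 (squares), LPS/IFN-γ (diamonds) and TGF-β (circles), filled where called, in the large (47 genes) and small (25 genes) subunit. Genes are ordered by the TGF-β value, from Mrpl52 at 0.59 to Mrpl47 at -0.73. The LPS/IFN-γ values do not follow that order, with Mrpl13, Mrpl27 and Mrpl38 far to the right and Mrpl49, Mrps26 and Mrps23 far to the left.

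LPS with IFN-γ changed mitoribosomal genes in both directions. Of 72, 23 were called lower (31.9%, against 34.3% of all genes) and 7 higher (9.72%, against 21.5%), or 41.7% called in either direction against 55.7% of all genes. The median was -0.14 against -0.083 for all genes, and 52 of 72 lay below 0. With arrays scaled by cyclic loess the split was 16 higher and 15 lower in place of 7 and 23, and the median was -0.034 against -0.001 for all genes. In 23 members every LPS/IFN-γ array lay below every untreated array (31.9%, against 28.9% of all genes). LPS/IFN-γ replicate 3 stood apart among its group: the median of the members' deviations from the untreated mean was -0.20 on it and -0.094 and -0.081 on replicates 1 and 2. Without it the members' median was -0.09, with 5 higher and 19 lower calls.

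Mrpl13 rose most. It encodes uL13m, a protein on the outer surface of the large subunit with a bacterial homolog. Its LPS/IFN-γ arrays stood at 11.83, 11.90 and 12.08, and its untreated arrays spanned 11.10 to 11.19, median 11.16. The groups were far apart, and the fold change was 0.79 ± 0.07 (adjusted p = 9.1e-08), a level 72.9% higher. A second probe, in a fit of every measured probe, gave 0.67 ± 0.14 (adjusted p = 0.00107). With IL-4 and TGF-β it was at -0.18 and -0.15, neither called.

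Mrpl27 encodes bL27m, whose bacterial counterpart reaches into the peptidyl transferase centre. Its LPS/IFN-γ arrays stood at 11.25, 11.18 and 11.30, far above the untreated span of 10.45 to 10.62, median 10.52. The IL-4 arrays, at 10.54, 10.61 and 10.58, and the TGF-β arrays, at 10.47, 10.58 and 10.45, overlapped the untreated ones. The fold change with LPS/IFN-γ was 0.72 ± 0.06 (adjusted p = 1.01e-07). Mrpl38 encodes mL38, a mitochondria-specific protein at the top of the large subunit, and read 12.27, 12.16 and 12.04 against 11.36 to 11.53, median 11.47. Its fold change was 0.70 ± 0.07 (adjusted p = 7.55e-07), with 0.57 ± 0.07 from its second probe.

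The probes of Mrpl38 parted with TGF-β. The probe that stands for the gene, by the highest mean signal, was at -0.07 ± 0.07 (adjusted p = 0.481), and the second probe, annotated to a cDNA clone, at -0.60 ± 0.07 (adjusted p = 1.07e-05). Whether they detect different transcripts was not tested. Mrpl49 (mL49) parted likewise: the probe that stands for it was at -0.64 ± 0.10 with LPS/IFN-γ and -0.04 ± 0.10 with TGF-β, while the other 3 probes ran from -0.71 to -0.13 with LPS/IFN-γ and from -0.36 to -0.23 with TGF-β. Of the 26 members with more than 1 measured probe, the probes differed in call in 1 with IL-4 (Mrpl38), in 7 with LPS/IFN-γ (Mrpl1, Mrpl15, Mrpl49, Mrpl51, Mrps5, Mrps10 and Mrps12) and in 9 with TGF-β (Mrpl15, Mrpl37, Mrpl38, Mrpl49, Mrps5, Mrps7, Mrps15, Mrps26 and Mrps31), with p-values adjusted over all measured probes. They differed in direction with at least 1 stimulus in Mrpl9, Mrpl10, Mrpl13, Mrpl47, Mrpl51, Mrps5, Mrps7, Mrps15 and Mrps23, without opposite calls. Some ribosomal protein genes have pseudogenes in the mouse genome, and their share in a probe's signal was not tested.

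The other genes called higher with LPS/IFN-γ were Mrpl52, Mrpl58, Mrpl1 and Mrps10. Mrpl58 encodes mL62 (ICT1), a peptidyl-tRNA hydrolase that can free stalled ribosomes. It read 8.08, 7.98 and 8.30 against 7.59 to 8.16, median 7.70, so the groups overlapped, at 0.34 ± 0.13 (adjusted p = 0.0337). That call was lost without LPS/IFN-γ replicate 1 (0.36, adjusted p = 0.0607) or 3 (0.25, adjusted p = 0.166), or without untreated replicate 2 (adjusted p = 0.0588), 3 (0.057), 5 (0.0644) or 6 (0.0633), and within chips it was at -0.07, 0.20 and 0.70, the sole call with this stimulus whose direction differed between chips. It was also lost in 4 of 15 other settings (median scaling, no filter, array weights and the replicate block, adjusted p up to 0.193). Mrpl1 (uL1m, of the arm that guides spent tRNA out) was at 0.29 ± 0.08 (adjusted p = 0.00675), with its arrays above all untreated ones. That call was lost in 4 of 15 other settings (median scaling, every probe, the mean of its probes and the replicate block), with an adjusted p of up to 0.326. Of the 10 highest, Mrpl39 (0.42 ± 0.18, adjusted p = 0.0542), Mrpl53 (0.18) and Mrpl47 (0.16) were not called.

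Mrps10 was called in opposite directions against untreated. It encodes uS10m of the small subunit's head. Its untreated arrays ran from 11.60 over a median of 11.69 to 11.74, its IL-4 arrays read 11.46, 11.43 and 11.47, and its TGF-β arrays 11.31, 11.31 and 11.22. Both sets lay wholly below untreated, at -0.21 ± 0.06 (adjusted p = 0.0395) and -0.39 ± 0.06 (adjusted p = 0.000179). The LPS/IFN-γ arrays read 11.70, 11.90 and 11.86 and overlapped the untreated ones, at 0.15 ± 0.06 (adjusted p = 0.0492). Of its 2 other probes, 1 was called higher (0.24, adjusted p = 0.0214) and 1 was not (0.10). The higher call was lost without any 1 of 13 arrays, all but LPS/IFN-γ replicate 1 and untreated replicate 6, with an adjusted p of up to 0.199, and in 6 of 15 other settings (adjusted p up to 0.582), so a rise with LPS/IFN-γ against untreated is not firm. The lower call with TGF-β stayed when any 1 array was left out.

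**Figure D3:**
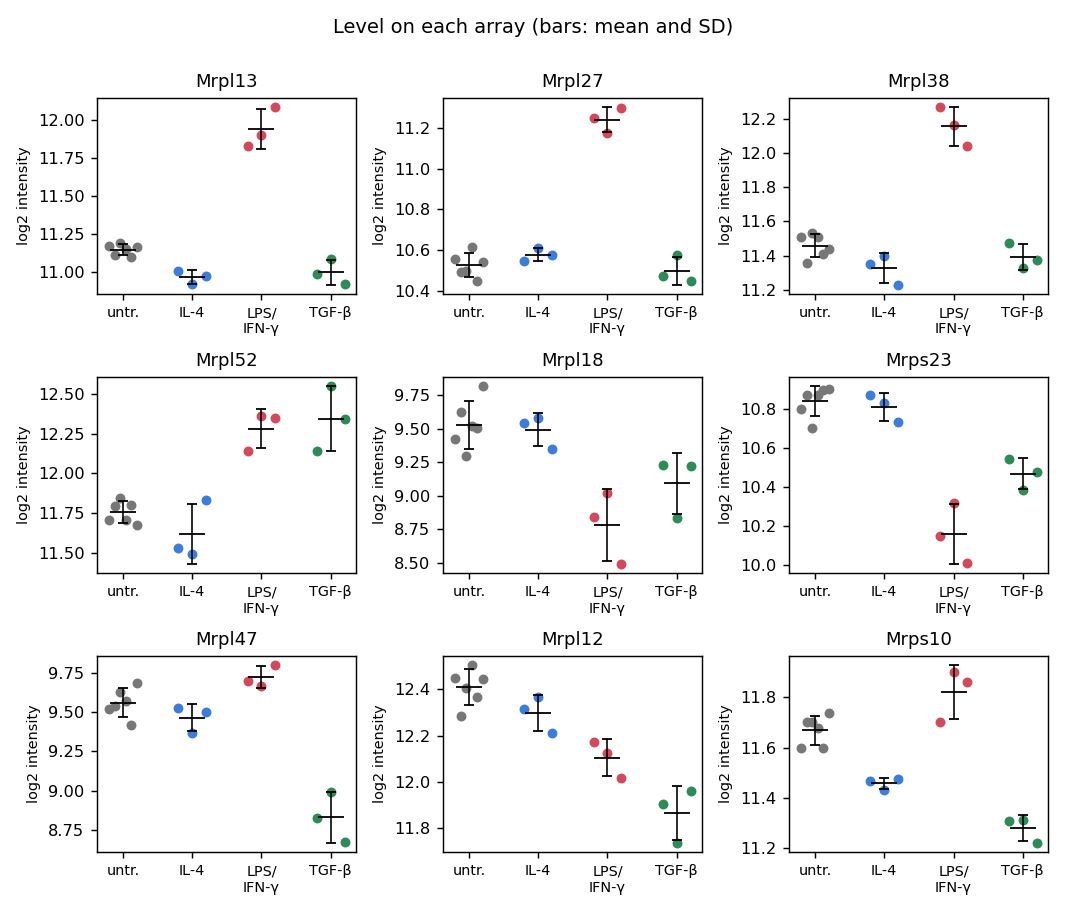
Log2 intensity of 9 members on each array, in untreated (6 arrays) and stimulated (3 arrays each) cells, with mean and SD, each gene on its own axis that does not start at 0. The LPS/IFN-γ arrays of Mrpl13, Mrpl27 and Mrpl38 lie above all others, the TGF-β arrays of Mrpl47 and Mrps10 below all others, and for Mrpl52 the arrays of LPS/IFN-γ and TGF-β lie above the rest.

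The lowest members with LPS/IFN-γ fell about as far as the highest rose. Mrpl18 read 8.84, 9.02 and 8.49 against 9.29 to 9.82 in untreated cells, median 9.51. No array overlapped, and the level fell by 40.4%, at -0.75 ± 0.13 (adjusted p = 0.000194). Mrps23 (mS23) read 10.15, 10.32 and 10.01 against 10.70 to 10.91, median 10.87, at -0.69 ± 0.08 (adjusted p = 2.16e-06), and its second probe gave -0.63. Its TGF-β arrays at 10.54, 10.38 and 10.48 lay between, below all untreated arrays, at -0.37 ± 0.08 (adjusted p = 0.00113).

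Mrpl49 read 10.27, 10.08 and 9.68 against 10.60 to 10.70, median 10.64, at -0.64 ± 0.10 (adjusted p = 7.08e-05). Mrps26 (mS26) read 11.70, 11.54 and 11.35 against 12.06 to 12.21, median 12.15, at -0.62 ± 0.07 (adjusted p = 3.94e-06), and its second probe gave -0.86. In both genes replicate 3 was the lowest array, and all 3 arrays lay below untreated. Mrpl57 (mL63), detected on 13 arrays, was at -0.43 ± 0.09 (adjusted p = 0.00133), and Mrps21 (bS21m) at -0.42 ± 0.10 (adjusted p = 0.00169). With TGF-β, Mrpl57 was at -0.04 and Mrps21 at 0.02, and neither was called.

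Mrps6 (bS6m) was at -0.39 ± 0.11 with LPS/IFN-γ (adjusted p = 0.00566) and Mrps7 (uS7m, of the small subunit's head) at -0.35 ± 0.07 (adjusted p = 0.000428). Mrpl36 (bL36m) was at -0.37 ± 0.09 (adjusted p = 0.00218), and at -0.23 without LPS/IFN-γ replicate 3, still called. Mrps25 was at -0.42 ± 0.13 (adjusted p = 0.0123), and was not called without the same array (-0.32, adjusted p = 0.0764). Its 2 other measured probes were lower, at -0.75 ± 0.11 and -1.14 ± 0.16, and the latter was the sole measured member probe past 2-fold. Mrps12 (uS12m, of the decoding centre) was at -0.24 ± 0.08 (adjusted p = 0.0231), and at -0.15 without LPS/IFN-γ replicate 3 (adjusted p = 0.158), and its call was lost in 5 of 15 other settings (adjusted p up to 0.187).

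By subunit, LPS/IFN-γ gave 6 higher (12.8%) and 13 lower calls (27.7%) among 47 large-subunit genes (median -0.13), and 1 higher (4.0%) and 10 lower (40.0%) among 25 small-subunit genes (median -0.15), beside 21.5% higher and 34.3% lower among all genes. Of the 10 highest members, 9 belong to the large subunit. Neighbours on the ribosome could part: at the top of the large subunit, called its central protuberance, Mrpl38 and Mrpl58 were called higher and Mrpl18 lower, while Mrpl40 (-0.14), Mrpl46 (-0.17) and Mrpl48 (-0.09) were not called. At the stalk, Mrpl12 (-0.30) and its anchor Mrpl10 (uL10m, -0.22 ± 0.07, adjusted p = 0.0169) were lower, and Mrpl11 (-0.22) and Mrpl53 (0.18) were not called. These groups by location were put together after the values were seen.

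IL-4 changed few mitoribosomal genes. Of 72, 3 were called lower (4.17%, against 6.32% of all genes) and 0 higher by limma (against 5.64%). At an unadjusted p under 0.05, 8 were lower and 2 higher, 10 in all (13.9%, against 27.0% of all genes). The median was -0.061 against -0.022 for all genes, and 7 members had all IL-4 arrays below all untreated ones (9.72%, against 11.4%). All 3 called genes encode small-subunit proteins: Mrps22 (mS22), Mrps10 and Mrps18b.

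Mrps22 read 10.28, 10.41 and 10.34 with IL-4 against 10.45 to 10.84 in untreated cells, median 10.64. The groups did not overlap, at -0.30 ± 0.08 (adjusted p = 0.0239), and TGF-β arrays at 10.24, 10.25 and 10.32 lay there too (-0.37 ± 0.08, adjusted p = 0.00164). Leaving out IL-4 replicate 1 ended the IL-4 call (-0.26, adjusted p = 0.110), as did leaving out replicate 3 (-0.29, adjusted p = 0.0807). For Mrps10 it was lost without any 1 of 8 arrays (each IL-4 replicate, TGF-β replicate 1 and untreated replicates 2, 3, 4 and 6), with an adjusted p of up to 0.115 and values of -0.20 to -0.23. For Mrps18b it was lost without any 1 of 7 arrays (each IL-4 replicate and untreated replicates 2, 4, 5 and 6), with an adjusted p of up to 0.105 and values of -0.19 to -0.20. All 3 IL-4 calls were also lost with median scaling and with the replicate block, Mrps22 in these 2 of 15 other settings (adjusted p up to 0.0943), Mrps10 in 6 (up to 0.268) and Mrps18b in 6 (up to 0.391). Below the threshold, Mrps2 (uS2m) was at -0.28 ± 0.09 (adjusted p = 0.0671) and Mrpl11 (uL11m, at the base of the stalk) at -0.27 ± 0.09 (adjusted p = 0.0648). The highest member with IL-4 was Mrps25 at 0.28 ± 0.13, and next came Mrpl39 at 0.27 ± 0.18 and Mrpl20 at 0.20 ± 0.09, none of them called (adjusted p = 0.180, 0.359 and 0.166).

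The stimuli were also set against each other directly. Between LPS/IFN-γ and TGF-β, 22 members were higher with LPS/IFN-γ (against 23.3% of all genes, 30.6% of the members) and 7 lower (9.72%, against 32.4%). With cyclic loess the split was 31 and 5, and with the median alone 17 and 0. Mrpl13 (0.94 ± 0.08), Mrpl47 (0.90 ± 0.09), Mrpl38 (0.76 ± 0.08), Mrpl27 (0.74 ± 0.07) and Mrps10 (0.54 ± 0.07, adjusted p = 1.32e-05) were highest. Of these, Mrpl47 and Mrps10 parted chiefly through their TGF-β arrays and the others through their LPS/IFN-γ arrays, as the levels above show. Mrpl49 (-0.60 ± 0.12), Mrps26 (-0.46 ± 0.08), Mrps21 (-0.44 ± 0.11), Mrpl57 (-0.39 ± 0.11) and Mrps23 (-0.31 ± 0.09, adjusted p = 0.00698) were lowest.

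Between IL-4 and TGF-β, 16 members were higher with IL-4 (22.2%, against 13.8% of all genes) and 1, Mrpl52, was lower (1.39%, against 16.6%). Mrps25 led with 0.71 ± 0.15 (adjusted p = 0.00185), followed by Mrpl47 (0.64 ± 0.09), Mrps15 (0.62 ± 0.18), Mrpl9 (0.47 ± 0.11) and Mrpl20 (0.47 ± 0.10). Mrpl52 was at -0.72 ± 0.11 (adjusted p = 0.000165). Between LPS/IFN-γ and IL-4, 8 members were higher with LPS/IFN-γ (11.1%, against 21.5% of all genes) and 15 lower (20.8%, against 29.3%), with cyclic loess 14 and 10, and with the replicate block 6 and 12. Mrpl13 again led at 0.97 ± 0.08 (adjusted p = 5e-08), with Mrpl38, Mrpl27, Mrpl52 and Mrpl58 next, and Mrpl49 was lowest at -0.77 ± 0.12 (adjusted p = 5.54e-05).

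**Figure D4:**
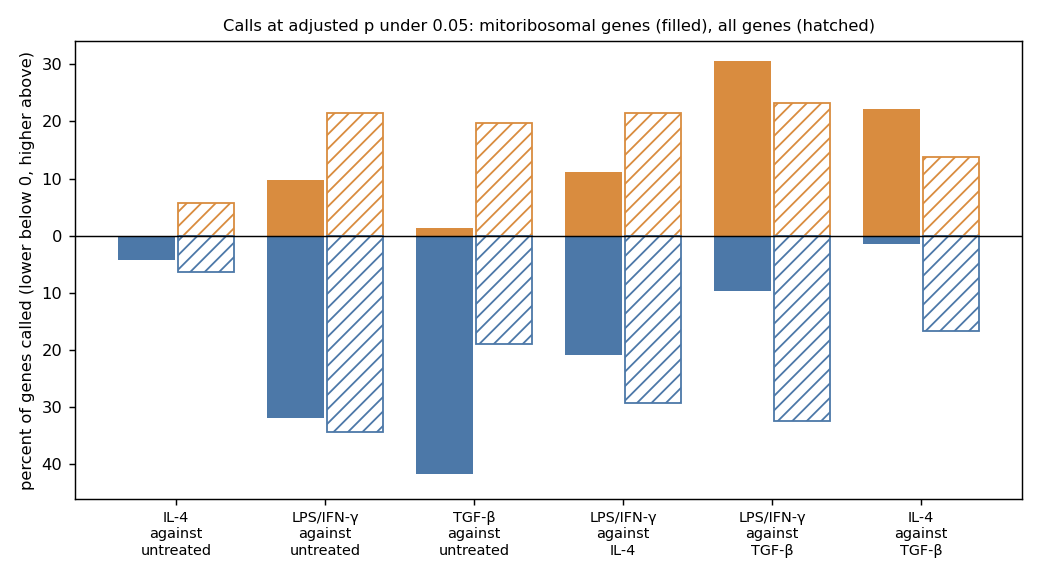
Percent of the 72 mitoribosomal genes (filled bars) and of all 8558 genes (hatched bars) called higher (above 0) or lower (below 0) in each of 6 comparisons. With TGF-β against untreated the filled lower bar reaches 41.7% where the hatched one stands at 19.0%, and with LPS/IFN-γ both filled bars are shorter than the hatched ones.

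The other genes of mitochondrial translation were read for the same contrasts, in which 21.5% of all genes were called higher and 34.3% lower with LPS/IFN-γ, 19.7% and 19.0% with TGF-β, and 5.64% and 6.32% with IL-4. Of 3 ribosomal proteins with other names, Ptcd3 (mS39, an RNA-binding protein of the small subunit) was lower with LPS/IFN-γ at -0.61 ± 0.07 and with TGF-β at -0.56 ± 0.07 (adjusted p = 2.82e-05). Chchd1 (mS37) was called higher with LPS/IFN-γ (0.18, adjusted p = 0.0334) and lower with TGF-β (-0.25, adjusted p = 0.008), and Dap3 (mS29, a GTP-binding protein of the small subunit) was not called (-0.13 and -0.14). None of the 3 was called with IL-4, where they lay between -0.13 and -0.07.

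Among 14 translation factors, 5 were called lower with TGF-β (35.7%, against 19.0% of all genes) and all 14 lay below 0, with a median of -0.25. The initiation factor gene Mtif3 fell most, to -1.02 ± 0.11 (adjusted p = 4.15e-06), and the elongation factor gene Gfm1 to -0.72 ± 0.08 (adjusted p = 9.63e-06). With LPS/IFN-γ 6 were lower (42.9%, against 34.3%) and 1 higher. The lowest was Mtfmt, which formylates the initiator tRNA, at -0.94 ± 0.25 (adjusted p = 0.00463). Its LPS/IFN-γ arrays read 6.64, 6.64 and 5.38 against 6.78 to 7.46 in untreated cells, so the size of this fall leans on replicate 3. The higher one was Taco1, an activator of cytochrome oxidase translation, at 0.32 ± 0.13 (adjusted p = 0.0469). Among 25 genes of ribosome assembly and RNA handling, TGF-β gave 9 lower (36.0%) and 2 higher calls and LPS/IFN-γ 8 lower (32.0%, near the share of all genes) and 3 higher. The rRNA methyltransferase gene Mrm3 was lowest with both (-0.52 ± 0.11 and -0.69 ± 0.11), Mrm1 was highest with TGF-β (0.39 ± 0.07), and Tfb1m, which methylates the small rRNA, was highest with LPS/IFN-γ (0.51 ± 0.10, adjusted p = 0.000386). IL-4 gave 2 lower calls in this list, Rpusd3 (-0.39, adjusted p = 0.014) and Ddx28 (-0.29, adjusted p = 0.024).

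Mitochondrial tRNA synthetases load the tRNAs that this ribosome reads. Of 13, 7 were called lower with LPS/IFN-γ (53.8%, against 34.3% of all genes, median -0.24) and 3 with TGF-β (23.1%, against 19.0%, median 0.010), with Cars2 (-0.66 ± 0.09) and Lars2 (-0.55 ± 0.09) lowest with the former and Mars2 (-0.53 ± 0.09) and Cars2 (-0.45 ± 0.09) with the latter. Wars2 was called higher with IL-4 (0.91, adjusted p = 0.0304). Of 9 genes that copy or transcribe mitochondrial DNA, LPS/IFN-γ lowered 4 (44.4%, against 34.3% of all genes), with Tfb2m, a transcription factor, at -0.78 ± 0.08 and the polymerase gene Polg at -0.74 ± 0.12, and raised Primpol (0.80 ± 0.12). TGF-β lowered 3 of them (33.3%, against 19.0%): Polg2 (-0.36 ± 0.12), Twnk (-0.33 ± 0.10) and Tfam (-0.30 ± 0.08).

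Of 10 listed regulators of mitochondrial gene expression, 8 were measured, and Yy1 and Myc were detected on no array. The GABP subunit gene Gabpb1, whose complex is an ETS-family factor, was at 0.96 ± 0.15 with LPS/IFN-γ (adjusted p = 6.47e-05) and at -0.50 ± 0.15 with TGF-β (adjusted p = 0.0151). Gabpa, which holds the DNA-binding part, was at 0.34 ± 0.11 (adjusted p = 0.0119) and -0.16 ± 0.11 (adjusted p = 0.247). Nrf1 was called with no stimulus (0.02, -0.10 and 0.07), and Pprc1, a coactivator related to PGC-1, was lowest with LPS/IFN-γ at -0.56 ± 0.09 (adjusted p = 8.46e-05). In all, 4 of the 8 were called higher and 2 lower with LPS/IFN-γ, and 2 lower with TGF-β. Ppargc1b (0.35, adjusted p = 0.0141) and Esrra (0.25, adjusted p = 0.020) were called higher with IL-4.

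**Figure D5:**
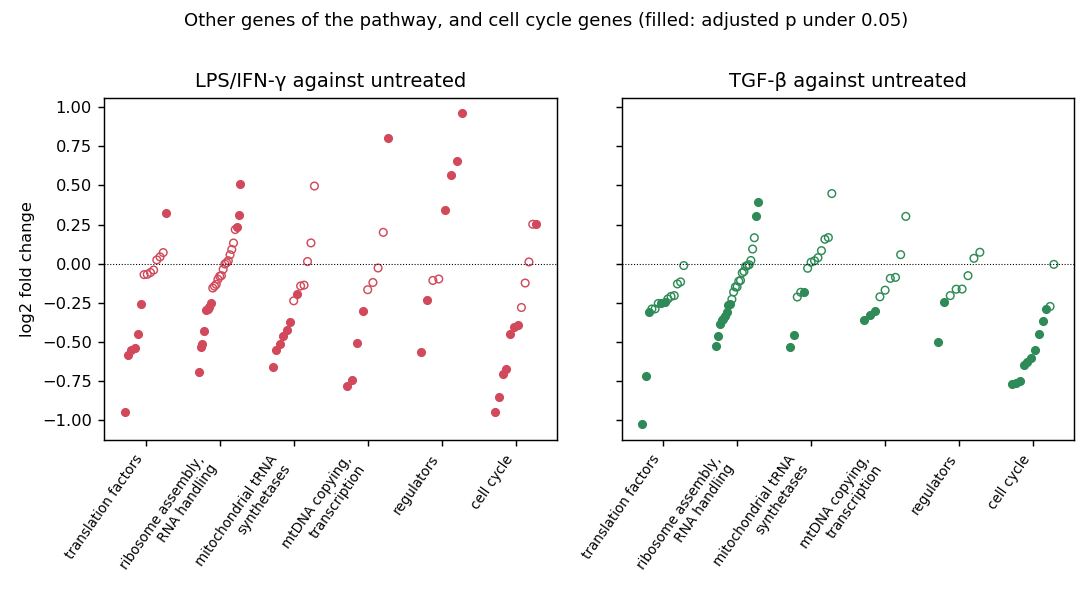
Log2 fold changes of the other genes of mitochondrial gene expression and of cell cycle genes with LPS/IFN-γ (left) and TGF-β (right) against untreated, sorted within each list, filled where called. With TGF-β all 14 translation factors lie below 0, from -0.01 to -1.02, and 10 of 12 cell cycle genes are called lower (83.3%, against 19.0% of all genes).

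Cell cycle genes were read in the same comparisons. With IL-4, 75% of them were called lower, against 4.17% of the mitoribosomal genes. Of 12 measured (13 had a probe, and Ccna2 was detected on no array), 10 were called lower with TGF-β (median -0.58), 9 with IL-4 (median -0.37) and 7 with LPS/IFN-γ (median -0.40, with Top2a higher). Their summed intensity ran from 19350 to 20720 in untreated arrays, 14840 to 15300 with TGF-β, 15590 to 16480 with IL-4, and for LPS/IFN-γ 16240 to 16790. Their part in the mitoribosomal values was not tested. The 49 cytosolic ribosomal protein genes gave 2 higher (4.08%) and 3 lower calls (6.12%) with TGF-β (median 0.010) and the same counts with LPS/IFN-γ (median -0.05). The 69 subunits of oxidative phosphorylation gave 3 higher (4.35%) and 15 lower calls (21.7%) with TGF-β (median -0.10). With LPS/IFN-γ these subunits gave 2 and 28 (2.9% and 40.6%, median -0.18), and with IL-4 3 and 1 (4.35% and 1.45%, median 0.097). Among all genes, 19.7% were higher and 19.0% lower with TGF-β, 21.5% and 34.3% with LPS/IFN-γ, and 5.64% and 6.32% with IL-4.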

How the data were processed

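Total RNA of the cells was hybridised as biotin-labelled cRNA to Illumina mouse WG-6 bead arrays. The deposited table holds a bead intensity and a detection p-value per probe and array, per the file headers, with no background correction or scaling, and both the intensities and the p-values were used. A second deposited table holds the authors' log2 values, made with Partek per the submitters' processing notes, with steps not given in the sources used here, and served as an alternative.

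With R 4.3.3 and limma 3.58.1, signals were background-corrected with neqc (offset 16), quantile normalised and log2 transformed. A probe was kept if 3 or more of the 15 arrays gave it a detection p below 0.01, symbols were updated through RefSeq, and the probe with the highest mean stood for a gene. Group means of all 15 arrays were fitted with lmFit and eBayes, with Benjamini-Hochberg adjustment over 8558 genes per comparison and a threshold of 0.05. The fit was tested on simulated data. Precision is limited by the number of arrays, and an intensity is not a copy number.

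The members and lists were chosen with earlier results of these data known. Named were the 10 highest and 10 lowest members against untreated, the 5 highest and 5 lowest between stimuli, members with opposite calls or disagreeing probes, Mrpl12, Mrps12, Mrps18a, Mrps30 and Mrps36 (no listed probe), and the extremes of each list. The 3 chips were checked as batches, and the replicate numbers, which follow the chips for stimulated arrays, were checked for pairing. Deviations of same-numbered IL-4 and LPS/IFN-γ arrays correlated at 0.226, 0.306 and 0.156, and in no other comparison were all 3 correlations over 0.1. Unless an alternative is named, the values given come from a fit without pairs. For LPS/IFN-γ against IL-4 the counts with the replicate block are given beside them. Alternatives changed the background, scaling, filter, probe choice, variance prior, array weights, blocks, the groups in the fit and single arrays.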

Additional observations from a re-analysis of the deposited data

How the results depend on the processing

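Among the counts of called members and the members' medians, 187 of 225 values under other settings and 214 of 225 with 1 array left out stayed close to the value given (counts within 1.5 times, medians within 1 SD between arrays). For TGF-β the lower calls ran from 20 with the replicate block to 38 under scaling by the median alone, and from 22 to 36 when 1 array was left out, where the higher calls were 1 to 2 (22 without TGF-β replicate 1, 36 and 2 without LPS/IFN-γ replicate 3). Same-numbered arrays correlated at over 0.1 in all 3 pairs for IL-4 with LPS/IFN-γ, where the replicate block gave 6 higher and 12 lower calls, in 5 of the 6 pairs of a stimulated and an untreated array that share a chip, and in 0 of the 3 that do not. Of 12 pairs of a stimulated and an untreated array that share a chip but not a number, 1 correlated at over 0.1. The main fit took no numbers as pairs. In the comparisons with untreated the replicate block gave 0 lower calls with IL-4 and 4 higher with LPS/IFN-γ. Untreated replicates 4, 5 and 6 share their number with no stimulated array, so they add nothing to these comparisons under that block. Untreated replicate 3, from chip 2, is matched there with stimulated arrays of chip 3. Calls lost with the replicate block thus rest on fewer untreated arrays. Scaling by the median alone shifted all genes by -0.11, -0.15 and -0.19 with IL-4, LPS/IFN-γ and TGF-β. It gave 0 lower with IL-4, 4 higher and 13 lower with LPS/IFN-γ, 0 higher with TGF-β, 5 higher and 7 lower for LPS/IFN-γ against IL-4, 0 lower for LPS/IFN-γ against TGF-β and 10 higher for IL-4 against TGF-β. Cyclic loess gave 1 lower with IL-4, 16 higher and 15 lower with LPS/IFN-γ, and 14 higher for LPS/IFN-γ against IL-4. The authors' log2 table gave 1 higher and 10 lower with IL-4, 35 lower with LPS/IFN-γ, 2 higher with TGF-β and 2 lower for IL-4 against TGF-β. With IL-4 the lower calls were 6 without background correction, with array weights or with only the groups compared, 5 with a variance trend and 1 without a filter, 0 to 6 when 1 array was left out (6 without LPS/IFN-γ replicate 3), and the mean of a gene's probes gave 1 higher. With TGF-β the higher calls were 2 without background correction, with array weights or with a variance trend. With only the groups compared, 9 were lower for LPS/IFN-γ against IL-4, and 14 higher and 4 lower for LPS/IFN-γ against TGF-β. The members' median with IL-4 was -0.0306 under loess and -0.1496 under median scaling (-0.0853 to -0.0535 with 1 array left out), with LPS/IFN-γ -0.0341 under loess (-0.1710 to -0.0898), and with TGF-β -0.1426 under loess, -0.1914 with every probe, -0.1894 with the probes' mean and -0.3807 under median scaling (-0.1908 to -0.1561). Signs turned in uncalled values: Mrpl47 with LPS/IFN-γ was at -0.0398 when every probe was its own feature, and Mrpl49 with TGF-β ran from -0.0978 to 0.0058 when 1 array was left out. The causes were not tested. Members near background are measured less precisely than bright ones.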
